A study of Mus musculus with 36 samples.

Results

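The genes described here are the nuclear-encoded subunits of the oxidative phosphorylation machinery, followed across 36 RNA sequencing libraries of mouse monocytes and macrophages. They were chosen by name alone: symbols starting Nduf with the subunit letters a, b, c, s or v and a number, Sdha to Sdhd, and symbols starting Uqcr, Cox4 to Cox8 or Atp5, with at least 200 counts summed over all libraries. Of 83 matching names, 76 met the count minimum, out of 24421 genes in each file and 18168 with a count in some library. They comprise 34 genes of complex I, 4 of complex II, 8 of complex III, 13 of complex IV and 17 of complex V. All mice carried the Apoe ko genotype, the baseline group included, so no group had intact Apoe. Libraries came from aortic macrophages (sorted from whole aortas digested with collagenase), monocytes (sorted from blood and spleen) and peritoneal macrophages (sorted from lavage). Baseline mice ate chow diet, early-stage mice 1 month and advanced-stage mice 6 months of high cholesterol diet, and each of the 9 groups holds 4 libraries. The labels number the replicates but name no separate mouse for each, so a p-value here measures the spread between libraries, which may be technical.

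Oxidative phosphorylation takes place at the inner mitochondrial membrane. Complex I accepts electrons from NADH and complex II from succinate, complex III passes them to cytochrome c, and complex IV passes them to oxygen. Complexes I, III and IV pump protons, and complex V, the ATP synthase, uses the returning protons to make ATP. Macrophages are known to shift between oxidative metabolism and glycolysis with their activation state. Most subunits are made from nuclear genes, the subject here, and a few from mitochondrial DNA, whose genes were not analysed here.

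The 7 names under the minimum were Cox7a1 with 22 counts over the 36 libraries, Cox6a2 with 17, Cox4i2 with 6, Cox8b with 1, and Cox8c, Cox7b2 and Ndufs5 with 0. Just inside it stood Cox6b2, a subunit isoform named for testis, with 440 counts, and Atp5s with 813. Cox7a1, Cox6a2 and Cox8b are the muscle isoforms of complex IV subunits, and their ubiquitous counterparts Cox7a2, Cox6a1 and Cox8a were all members. Whether the 0 of Ndufs5, a complex I gene, came from the cells or from the counting was not tested. Ndufa4 is counted under complex IV, where it is now placed. RefSeq lists Atp5s and Atp5sl as Dmac2l and Dmac2, so both entered through their older names and are not named there as ATP synthase subunits. Cox6b2 was too low to be tested in any comparison and Atp5s too low in monocytes, which left 75 members tested in general and 74 in monocytes.

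Library totals were 5278901 to 14771799 counted reads at baseline and 942899 to 2628766 at both diet stages, so the baseline and a deeper library cannot be told apart. Levels are given as CPM, counts per 1000000 counted reads of a library. All 7 macrophage and monocyte markers were present in every group, classical monocyte markers summed to 2067 to 3385 CPM in monocytes, and peritoneal macrophage markers to 3857 to 16644 CPM in the peritoneum. Of 4 brown adipocyte markers, a cell type rich in these complexes, the summed level reached at most 2.5 CPM in any library. There were 6 libraries that stood apart from their group, chosen after their values were seen and named with the results they touch: few genes detected in aortic baseline 3 and 4 (7790 and 7565 genes against 10163 and 10102 in the other 2) and aortic advanced 1 (9216 against 12663 to 13293), neutrophil markers in monocyte advanced 3, and classical monocyte markers in peritoneal early 1 and 2.

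The 76 members together made up 0.201 to 0.472% of the reads of a library. In monocytes their summed level was 3466, 3608, 3332 and 3453 CPM at baseline, 4630, 4279, 4173 and 4173 CPM at the early stage and 4513, 4409, 4130 and 4282 CPM at the advanced stage. Every monocyte library on high cholesterol diet lay above every baseline one. In the peritoneum the sum was 3022, 3172, 3179 and 3092 CPM at baseline, 4723, 4208, 3145 and 3422 CPM at the early stage and 3304, 3126, 3554 and 3385 CPM at the advanced stage. The early peritoneal libraries split, with 1 and 2 far above 3 and 4. Aortic macrophages gave 3186, 3632, 3359 and 2010 CPM at baseline, 3531, 3411, 3610 and 2851 CPM early and 3559, 2720, 3211 and 3080 CPM at the advanced stage, with overlapping groups. Since these are shares of a library, fewer cells of a type and less RNA per cell cannot be told apart in them.

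**Figure D1:**
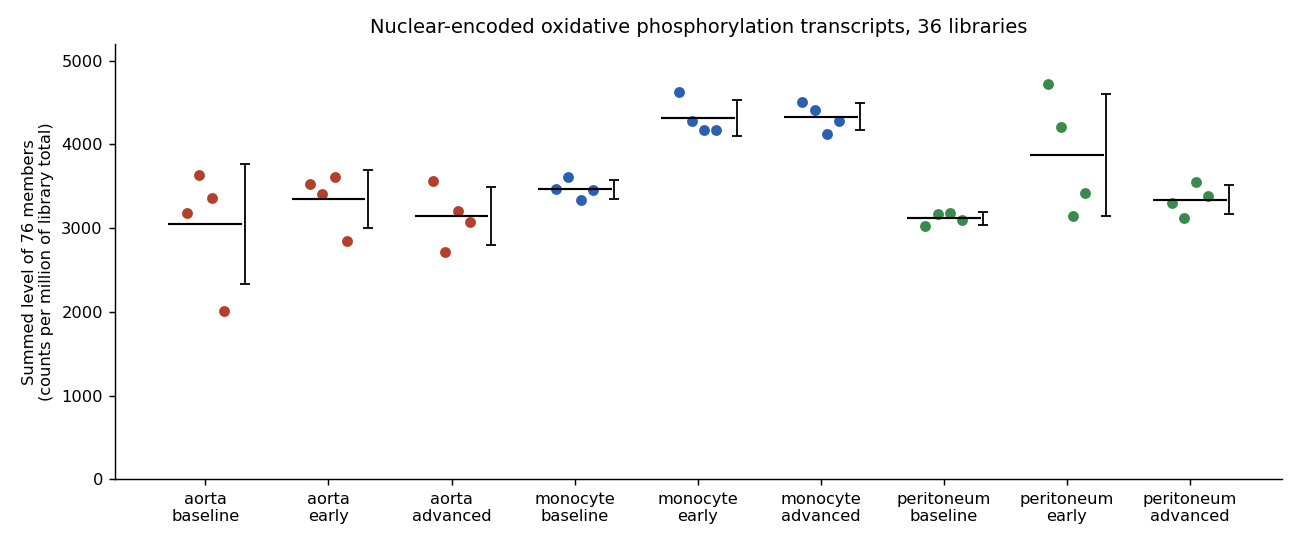
Summed level of the 76 members in CPM (vertical axis) for each of 36 libraries (points), by population and stage. Horizontal lines are group means and bars are ± 1 SD (n = 4); the 8 monocyte libraries on diet sit between 4130 and 4630, above the 4 at baseline (3332 to 3608).

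Compared per length (CPM per kilobase of the median protein-coding transcript), Uqcrh, Atp5b and Cox4i1 were among the first 4 in the 3 groups given here. In monocytes at baseline the order began with Uqcrh, the hinge subunit of complex III, at 204 CPM per kb, then Atp5c1, the gamma subunit of the ATP synthase rotor, at 187, Cox4i1, the ubiquitous subunit 4 of complex IV, at 159, and Atp5b, the catalytic beta subunit, at 145. The early and advanced libraries kept Uqcrh first, at 279 and 281. In the peritoneum at baseline Atp5b came first at 153 CPM per kb, ahead of Uqcrh at 145 and Cox4i1 at 120. In advanced aortic macrophages Cox4i1 stood at 149, Atp5b at 140 and Uqcrh at 134 CPM per kb.

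In monocytes, 20 of 74 members rose from baseline to the early stage and none fell (edgeR quasi-likelihood test, Benjamini-Hochberg adjusted p under 0.05 over all 9465 genes tested). Among all genes tested 5.74% rose and 5.07% fell. The log2 fold change was positive for 71 of 74 members, against 50% of all genes, with a median of 0.39 over members and 0.00 over all genes. For 26 members the 4 early libraries all lay above the 4 baseline libraries, 35.1% of members against 7.27% of all genes, and for 0 members they all lay below, against 10.2%. At the advanced stage 28 of 74 members rose against baseline and none fell, where 9.24% of all genes rose and 9.75% fell. The median was 0.38, 68 members were positive against 48.7% of all genes, 29 lay above baseline without overlap against 8.47% of all genes, and 0 below it against 13.7%. Both comparisons use the same 4 baseline libraries and are given side by side, not as support for each other.

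**Figure D2:**
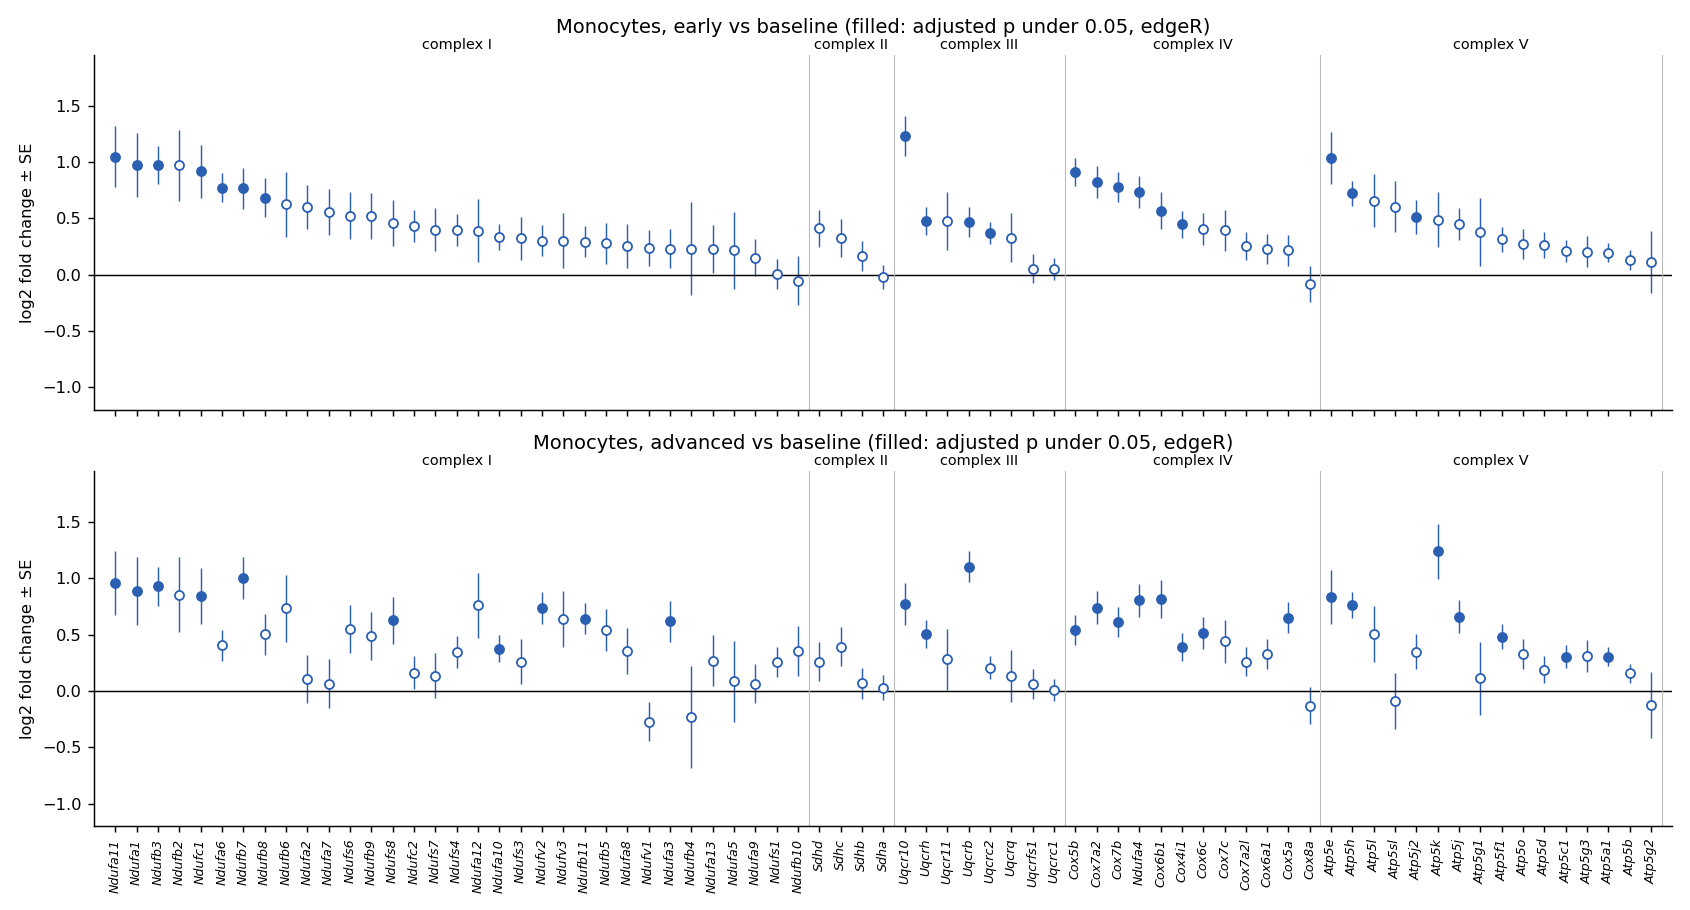
Log2 fold change ± SE of 73 members in monocytes, early against baseline (top) and advanced against baseline (bottom), ordered by complex and by the early value, with filled points for adjusted p under 0.05. Filled points, 20 in the top panel and 28 in the bottom, all lie above 0, and none belongs to complex II.

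Complex I, which starts the chain, had 7 of 34 subunits higher at the early stage and 10 of 34 at the advanced stage. Ndufb3, an accessory subunit of the membrane arm, measured 15.4, 18.6, 17.1 and 12.5 CPM at baseline, 28.7, 29.3, 35.9 and 28.3 CPM early and 26.5, 26.5, 35.6 and 26.9 CPM at the advanced stage. No diet library overlapped a baseline library. The log2 fold change was 0.97 ± 0.17 (SE) early, edgeR adjusted p = 0.00241, and 0.93 ± 0.17 at the advanced stage, adjusted p = 0.00230. Ndufb7, another membrane-arm accessory subunit, read 21.3, 19.7, 18.3 and 18.5 CPM at baseline, 45.8, 27.9, 31.5 and 25.2 CPM early and 32.4, 37.1, 35.6 and 45.8 CPM advanced, which gave 0.77 ± 0.18 and 1.00 ± 0.19 on the log2 scale (edgeR adjusted p = 0.0148 and 0.00221). Its diet libraries too were all above baseline. Without monocyte early 1 the early adjusted p was 0.0594. With the libraries thinned to equal depth it was 0.144, and the advanced adjusted p of Ndufb3 was 0.058. Ndufa6, an accessory subunit of the LYR protein family, rose early (0.77 ± 0.13, edgeR adjusted p = 0.00216) from 36.9, 37.3, 44.4 and 27.2 CPM to 68.01, 62.8, 59.8 and 53.6 CPM, and at the advanced stage stood at 46.99, 46.7, 45.1 and 47.2 CPM without passing the test. Ndufa11 had 8.14, 6.15, 12.1 and 14.3 CPM at baseline against 24.2, 22.2, 17.6 and 19.5 CPM early, a log2 fold change of 1.05 ± 0.27.

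The 7 nuclear core subunits of complex I, which hold the flavin and the iron-sulfur clusters, had a median log2 fold change of 0.30 early and 0.26 advanced, and 0 of 7 and 2 of 7 rose. The other 27 subunits had medians of 0.43 and 0.50, with 7 and 8 rising. This split was drawn after the values were seen, and the difference between the 2 sets was not tested. The 2 core subunits that rose were Ndufv2 and Ndufs8. Ndufv2, a subunit of the NADH-oxidising tip, measured 46.7, 38.9, 48.4 and 40.1 CPM at baseline, 47.4, 48.7, 59.2 and 56.2 CPM early and 88.02, 65.8, 68.2 and 58.1 CPM advanced, with 0.74 ± 0.14 at the advanced stage (edgeR adjusted p = 0.00277). All 4 advanced libraries lay above the early ones except that early 3, at 59.2 CPM, passed advanced 4. Its partner Ndufv1, which binds NADH, had 33.4, 38.8, 28.4 and 30.9 CPM at baseline, 45.8, 34.01, 38.4 and 34.1 CPM early and 29.1, 19.1, 26.1 and 29.1 CPM advanced and a log2 fold change of -0.27 ± 0.17 that missed the threshold (edgeR adjusted p = 0.296). Ndufs1, the largest subunit, read 50.6, 46.02, 58.02 and 44.4 CPM at baseline and 53.4, 50.5, 48.5 and 44.3 CPM early (0.01 ± 0.13), and these groups overlapped.

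No subunit of complex II, succinate dehydrogenase, passed the test at either stage. Sdha, the flavoprotein, held 127, 132, 127 and 119 CPM at baseline, 142, 118, 118 and 110.2 CPM early and 147, 113, 113 and 123 CPM advanced, and the log2 fold changes were -0.02 ± 0.11 and 0.03 ± 0.11. Sdhb, the iron-sulfur subunit, read 55.4, 57.99, 53.7 and 66.7 CPM at baseline, 77.1, 65.7, 52.3 and 62.9 CPM early and 54.9, 68.9, 53.99 and 61.7 CPM advanced. Sdhd, a membrane anchor, reached the highest early value of the 4 genes at 0.41 ± 0.17 (edgeR adjusted p = 0.130). The summed level of complex II was 259 ± 5.96 CPM (SD, n = 4) at baseline, 281 ± 34.3 early and 273 ± 23.1 advanced, while that of complex I was 844 ± 23.9, 1096 ± 91.9 and 1083 ± 62.3. With only 4 genes, a count of 0 says little about the complex.

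Complex III, the cytochrome bc1 complex, had 4 of 8 subunits higher early and 3 of 8 at the advanced stage. Uqcr10, a small membrane subunit, had 18.1, 17.5, 18.9 and 16.2 CPM at baseline, 42.8, 39.7, 40.3 and 40.3 CPM early and 22.5, 47.7, 22.5 and 28.3 CPM advanced. All early and advanced libraries lay above baseline. It had the largest early log2 fold change of the 74 members, 1.23 ± 0.17 (edgeR adjusted p = 0.000741), and 0.77 ± 0.19 at the advanced stage (edgeR adjusted p = 0.0100). Uqcrb, a subunit next to cytochrome b, measured 34.8, 36.5, 35.6 and 35.5 CPM at baseline, 55.4, 51.96, 42.8 and 42.9 CPM early and 81.4, 93.3, 67.04 and 57.4 CPM advanced. The 3 groups did not overlap. It was the 1 member that rose again between the early and the advanced stage (0.64 ± 0.14, edgeR adjusted p = 0.0310), among 74 members where 0.676% of all genes rose and 1.37% fell. Without monocyte early 2, early 4, advanced 1, advanced 2 or advanced 3 the adjusted p was 0.073, 0.0788, 0.0884, 0.0774 and 0.0579, above the threshold each time, and it was 0.0756 with the libraries thinned to equal depth. Uqcrh had 99.8, 96.8, 96.8 and 94.1 CPM at baseline, 157, 130.4, 106 and 137 CPM early and 128, 128, 112 and 164 CPM advanced (0.48 ± 0.12 and 0.50 ± 0.13). It was called at both stages, but the early adjusted p was 0.0536, 0.0628, 0.0843 and 0.0612 without monocyte baseline 1, baseline 2, early 1 or early 4. The large core protein Uqcrc1 read 105, 119, 94.5 and 102 CPM at baseline and 98.2, 109, 113 and 108 CPM early, and the Rieske iron-sulfur protein Uqcrfs1 85.8, 99.1, 71.1 and 75.9 CPM and 73.6, 85.5, 85 and 93.8 CPM. Neither passed the test, with 0.05 ± 0.10 and 0.05 ± 0.13 on the log2 scale.

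Complex IV, cytochrome c oxidase, had 6 of 12 tested subunits higher early, the same share as complex III, and 8 of 12 advanced. Cox5b, which binds zinc on the matrix side, read 32.7, 30.4, 32.1 and 27.1 CPM at baseline, 59.4, 59.99, 53.5 and 52.7 CPM early and 38.4, 40.3, 51.6 and 40.7 CPM advanced. The early log2 fold change was 0.91 ± 0.13, with the lowest adjusted p of the 74 members (edgeR, 0.000687), and the advanced one 0.54 ± 0.13 (edgeR adjusted p = 0.0107). Cox7a2 measured 31.2, 28.2, 27.3 and 31.8 CPM at baseline, 48.4, 65.7, 41.6 and 50.9 CPM early and 45.00, 60.5, 43.9 and 45.03 CPM advanced (0.82 ± 0.14 and 0.74 ± 0.15). Ndufa4 went from 34.1, 40.97, 31.8 and 36.5 CPM at baseline to 72.04, 55.7, 52.3 and 54.4 CPM early and 71.5, 57.3, 62.9 and 49.4 CPM advanced (0.73 ± 0.14 and 0.80 ± 0.15). All 8 diet libraries of both genes lay above baseline, and with the libraries thinned to equal depth the advanced adjusted p of Ndufa4 was 0.0613. Cox4i1 was called at both stages with smaller changes, 0.45 ± 0.12 and 0.39 ± 0.12, from 118, 142, 98.4 and 120.5 CPM at baseline to 194, 154, 145 and 147 CPM early. Cox5a, the partner that sits against Cox4i1, had 46.01, 41.95, 47.9 and 41.97 CPM at baseline, 58.9, 41.1, 59.8 and 43.8 CPM early and 72.1, 65.8, 70.6 and 61.01 CPM advanced, and was called at the advanced stage (0.65 ± 0.14, edgeR adjusted p = 0.00519). Cox8a, the smallest subunit, did not pass, with -0.08 ± 0.16 early and -0.13 ± 0.16 advanced.

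Complex V had 3 of 16 tested genes higher early and 7 of 16 advanced. Atp5h, subunit d of the peripheral stalk, measured 71.4, 76.7, 60.8 and 71.1 CPM at baseline, 103, 114, 106 and 131 CPM early and 114, 119.8, 123 and 102 CPM advanced (0.72 ± 0.11 and 0.76 ± 0.11, edgeR adjusted p = 0.00110 and 0.000607). All diet libraries lay above the highest baseline library. Atp5k, subunit e of the membrane part, had the largest advanced log2 fold change of the 74 members, 1.24 ± 0.24 (edgeR adjusted p = 0.00327), from 12.7, 10.7, 15.2 and 21.1 CPM at baseline to 30.4, 40.3, 34.4 and 33.4 CPM. Its early libraries, at 20.2, 21.7, 27.7 and 14.2 CPM, overlapped baseline. Atp5e, the epsilon subunit of the rotor, rose at both stages (1.03 ± 0.23 and 0.83 ± 0.24). Atp5a1 and the gene of the catalytic beta subunit, Atp5b, had smaller log2 fold changes. Atp5a1 had 276, 297, 269.9 and 272 CPM at baseline, 339, 291, 302 and 322 CPM early and 332, 338, 323 and 341 CPM advanced and was called at the advanced stage (0.30 ± 0.08, edgeR adjusted p = 0.0189). Atp5b had 269, 286, 294 and 259 CPM at baseline and 319.6, 282, 292 and 299 CPM advanced, 0.16 ± 0.09, not called. The 3 genes for the same ring subunit c, Atp5g1, Atp5g2 and Atp5g3, gave early log2 fold changes of 0.38 ± 0.30, 0.11 ± 0.28 and 0.21 ± 0.14, none called.

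Set side by side, 16 members were called at both diet stages, 4 at the early stage alone, 12 at the advanced stage alone and 42 at neither. Between the 2 diet stages themselves the median log2 fold change of the members was -0.04, and 36 of 74 were positive. Across the 74 members, shorter transcripts had higher log2 fold changes, with Spearman's rho between change and length of -0.425 early and -0.417 advanced, given as a description across genes that share all libraries. Members are short, with a median of 746 bases against 2414 over 19918 protein-coding genes. Of the 32 members with transcripts under 700 bases 12 rose early and 15 advanced, and of the 42 longer ones 8 and 13. The cut at 700 bases was set after the values were seen, and the part of transcript length in the result was not tested.

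Single libraries and depth moved some of these counts. Without monocyte early 1 the early count was 10, and without monocyte baseline 1 it was 11, in place of 20. The advanced count stayed between 20 and 31 as each library was left out. With every library thinned to 942899 reads, the total of the shallowest, 13 members rose early and 18 advanced with none falling, and the medians were 0.45 and 0.46. Neutrophil markers moved with the diet stages in monocytes: 6 markers summed to 69 to 677 CPM at baseline, 3719 to 14154 CPM early and 4983 to 40022 CPM advanced, and 5 and 6 of 6 were called higher. In early 1 to 4 they summed to 14154, 10662, 3719 and 8731 CPM, beside members' sums of 4630, 4279, 4173 and 4173 CPM. In advanced 1 to 4 they summed to 6853, 14523, 40022 and 4983 CPM, beside members' sums of 4513, 4409, 4130 and 4282 CPM. Without advanced 3, 22 members rose at the advanced stage. T and NK cell and B cell markers were also higher early (2 of 3 and 3 of 3 called), and at the advanced stage 2 of 3 T and NK cell markers were lower and 0 of 3 B cell markers were called. Of 7 macrophage and monocyte markers 2 fell early, Cd68 (-0.57 ± 0.15) and Adgre1 (-0.51 ± 0.15), and 1 rose at the advanced stage. Rn45s, the ribosomal RNA precursor, took 6.80 to 11% of reads at baseline, 12.1 to 13.7% early and 6.5 to 13.9% advanced, without overlap between early and baseline. The part of these cells and of the Rn45s share in the members' change was not tested.

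Related genes gave a wider frame. Among all genes tested in monocytes 5.74% rose and 5.07% fell early, and 9.24% rose and 9.75% fell advanced. Of 75 cytosolic ribosomal protein genes tested in monocytes (paralogs included), 61 rose early and 39 at the advanced stage and none fell, with medians of 0.56 and 0.32. Of 72 mitochondrial ribosomal protein genes 6 and 8 rose (medians 0.34 and 0.25), and of 17 proteasome core genes 4 and 4 (0.29 and 0.29). Assembly factors, which build the complexes without staying in them, had 2 and 4 of 36 higher (medians 0.13 and 0.20), among them Pet100 at 1.39 ± 0.20 early and Cox17, the copper chaperone of complex IV, at 0.90 ± 0.22 advanced. Among 11 carriers and electron donors, cytochrome c (Cycs) rose at both stages (0.70 ± 0.19 and 0.90 ± 0.19), cytochrome c1 (Cyc1) early (0.71 ± 0.19), and Atpif1, the inhibitor of ATP synthase, at the advanced stage (0.95 ± 0.20). The TCA cycle had 2 of 14 higher early, Fh1 (0.70 ± 0.17) and Idh3b (0.46 ± 0.13), and 1 at the advanced stage. Of 16 glycolysis genes 1 rose and 1 fell early and 3 rose and 1 fell at the advanced stage, with lactate dehydrogenase Ldha at 0.43 ± 0.12 and 0.45 ± 0.12 and hexokinase Hk2 at -0.66 ± 0.16. The 11 regulators tested, such as Nrf1, Gabpa, Esrra and Tfam, gave no call early, and 2 rose and 1 fell at the advanced stage. In monocytes the shares that rose among mitochondrial ribosomal protein genes and assembly factors were near those of all genes. In the peritoneum at the early stage, where 1.37% of all genes rose, 10 of 75 cytosolic ribosomal protein genes rose. No gene of the other lists named here was called there.

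The members' promoters were read for the motif letters of factors known to act on these genes. RefSeq windows (GRCm38.p6, 250 bases before to 50 after the start site) were matched to 65 of 76 members, 71 windows in all, against 32851 windows of 27025 genes. On either strand, the NRF1 motif (GCGC, any 2 bases, GCGC) stood in 25.4% of member windows and 6.23% of all windows. The GABPA letters CCGGAAG, for the factor also called NRF2, stood in 22.5% and 8.86%, and one or both of these motifs in 42.3% and 14%. The YY1 letters AAGATGGCG stood in 12.7% and 1.4%, and the ERRA letters TCAAGGTCA in 2.82% and 0.423%. The MYC letters CACGTG stood in 12.7% and 7.15%. The common CCAAT box of NFY and the SP1 letters GGGCGG were near the background, at 42.3% against 37.4% and 39.4% against 35.7%. The motif list was written after results of these data were known.

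The stretches below, from member promoters upstream of the start site, show the motif letters in capitals (NRF1, or GABPA as CCGGAAG or its reverse strand CTTCCGG), 5′ to 3′ on the gene's strand. The first 5 belong to members that rose in monocytes and the last 2 to complex II, where none did. They lie at chr5:108434425-108434464 (minus strand, Atp5k), chr17:56717687-56717726 (plus, Ndufa11), chr11:115419936-115420017 (minus, Atp5h), chr8:83566723-83566757 (plus, Ndufb7), chr7:30626121-30626157 (minus, Cox6b1), chr9:50603874-50603943 (minus, Sdhd) and chr13:74350241-74350353 (minus, Sdha) in GRCm38.p6.
Atp5k: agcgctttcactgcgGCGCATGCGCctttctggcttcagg
Ndufa11: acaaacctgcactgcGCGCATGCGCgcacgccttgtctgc
Atp5h: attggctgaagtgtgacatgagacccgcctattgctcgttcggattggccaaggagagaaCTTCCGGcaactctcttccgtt
Ndufb7: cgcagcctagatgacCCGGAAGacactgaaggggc
Cox6b1: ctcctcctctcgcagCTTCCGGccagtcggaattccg
Sdhd: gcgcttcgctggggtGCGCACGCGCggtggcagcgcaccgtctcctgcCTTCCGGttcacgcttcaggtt
Sdha: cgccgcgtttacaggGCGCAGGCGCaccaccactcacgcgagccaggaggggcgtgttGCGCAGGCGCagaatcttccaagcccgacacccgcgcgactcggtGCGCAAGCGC
In the stretches shown, Sdhd holds 1 match of each motif and Sdha 3 NRF1 matches, and neither gene was called at either stage. Atp5h and Atp5k, which were called, also held both motifs, 1 of them outside the stretch shown. Among the 27 members with a window that were called at the early or advanced stage, 22.2% held the NRF1 letters, against 28.9% of the other 38. For GABPA the shares were 29.6% and 21.1%. For YY1 they were 11.1% and 13.2%, for ERRA 0% and 5.26% and for MYC 3.7% and 15.8%. NFY gave 44.4% and 44.7%, and SP1 40.7% and 42.1%. These are matches of letters in a window, not measured binding.

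In peritoneal macrophages 5 of 75 members rose from baseline to the early stage and none fell, where 1.37% of 9575 genes rose and 0.418% fell (edgeR, adjusted p under 0.05). The median log2 fold change was 0.43, 64 members were positive against 52.3% of all genes, and for 16 members the groups did not overlap, 21.3% against 3.35% of all genes. The called members were Uqcr10 (1.03 ± 0.18, edgeR adjusted p = 0.0179), Cox4i1 (0.64 ± 0.13), Ndufa11 (1.13 ± 0.25), Ndufa2 (0.84 ± 0.19) and Atp5h (0.60 ± 0.14). Uqcr10 measured 15.1, 18.5, 19.9 and 17.2 CPM at baseline and 39.3, 46.5, 24.4 and 29.7 CPM early. Cox4i1 measured 86.9, 101, 91.8 and 83.1 CPM at baseline and 145, 167, 133 and 110.2 CPM early. For both genes early 1 and 2 were the highest, and early 3 and 4 still lay above all baseline libraries. Of these 5, 4 (Atp5h, Cox4i1, Ndufa11 and Uqcr10) were also among the 20 early monocyte calls, 80% of the peritoneal and 20% of the monocyte list. Of all members tested in monocytes 27% were called early. The 2 populations share no libraries, and each call was made against its own baseline, the deeper group in both. The overlap was not tested.

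The highest summed levels in the peritoneum were in early 1 and 2, and single members showed the same. Ndufv2 read 101, 63.3, 42.7 and 43.4 CPM in early 1 to 4, against 38.2, 43.3, 42.9 and 43.7 CPM at baseline. Ndufa4 read 129, 70.8, 53.3 and 64.1 CPM, against 40.2, 53.5, 47.1 and 59.2 CPM, and Cox7b, a small complex IV subunit, 113, 75.1, 42.7 and 57.7 CPM against 35.9, 33.8, 39.4 and 52.6 CPM. In each of these genes early 1 was highest, early 2 next and early 3 and 4 close to baseline. The same 2 libraries had 1007 and 1403 CPM of classical monocyte markers, Ly6c2 and Ccr2 among them, against 45 to 88 CPM in the other 10 peritoneal libraries, and 6201 and 3857 CPM of peritoneal macrophage markers against 9132 to 16644 CPM. Their part in the result was not tested. Without these 2 libraries the median was 0.21 and no member was called. The count was also 0 without peritoneal early 2, baseline 1, baseline 2 or baseline 3, it was 3 without early 1, and it rose to 17 without early 3 and to 8 without early 4. With every library thinned to equal depth no member was called, nor with the replicate number as a block. DESeq2 called 22 members on the same libraries and limma-voom with quality weights 13, all higher. The shares of all genes called by these tools are not given here, so the counts were not set against them.

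**Figure D3:**
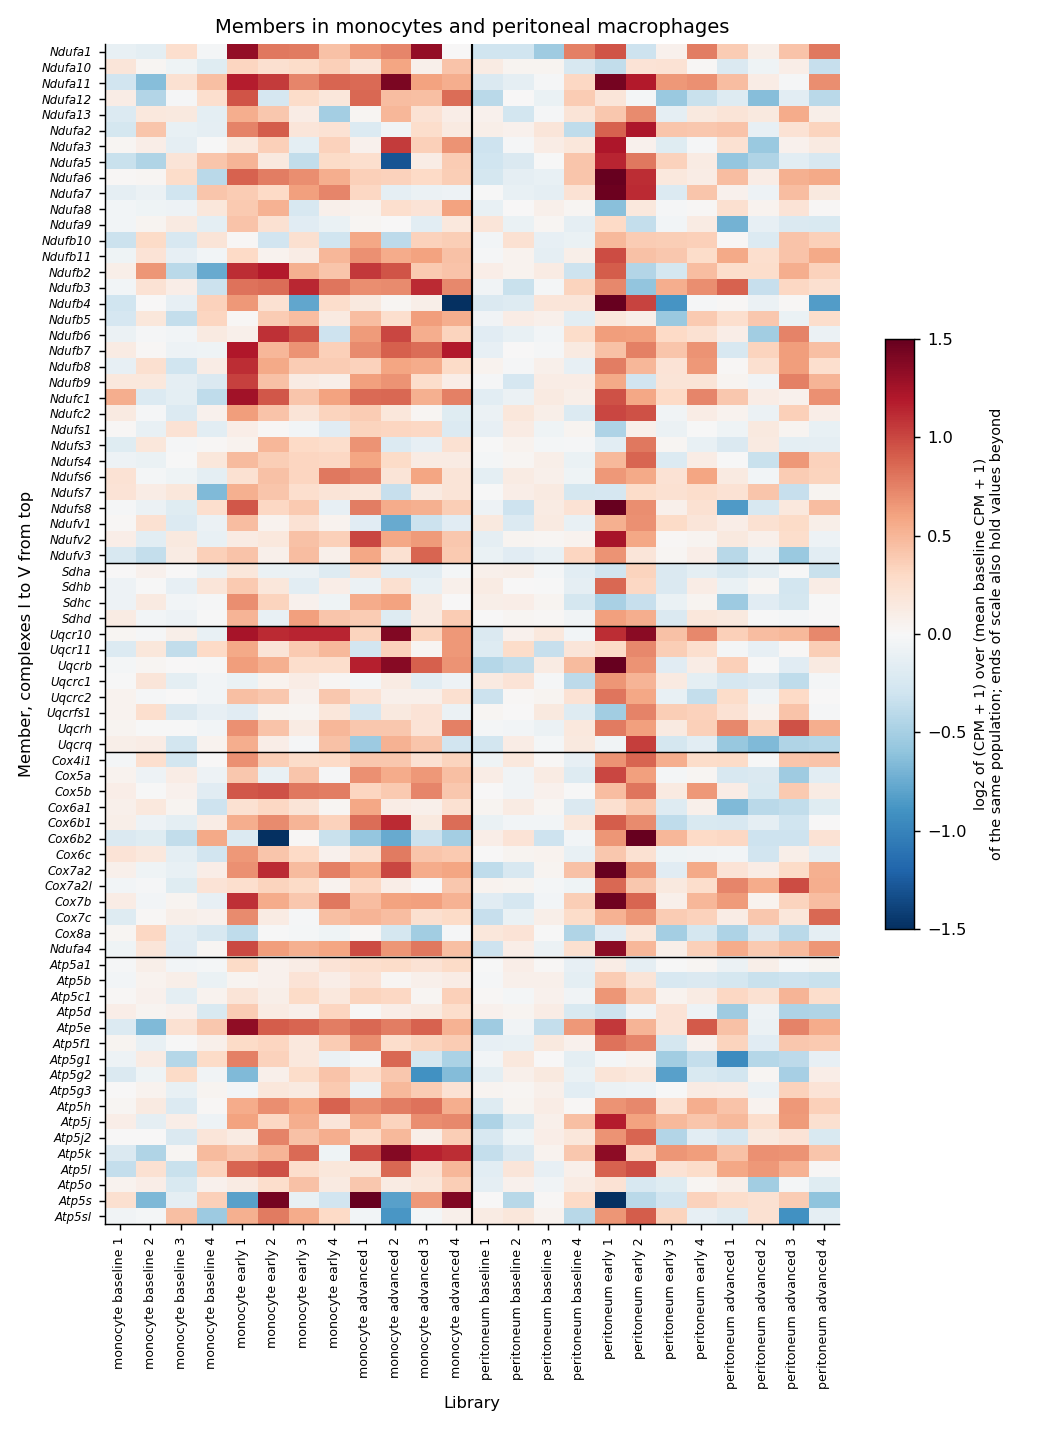
Levels of 75 members (rows, complexes I to V from top, separated by lines) in each monocyte and peritoneal library (columns), as the log2 of the CPM plus 1 over the mean baseline CPM plus 1 of the same population, from -1.5 (blue) to 1.5 (red). Monocyte diet libraries are red over most rows outside complex II, and in the peritoneum red is strongest in early 1 and 2.

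At the advanced stage 2 of 75 members were called in the peritoneum, both higher, where 0.512% of all genes rose. Cox7a2l, which joins complexes III and IV into a supercomplex, measured 101, 99.97, 95.00 and 93.1 CPM at baseline, 178, 129, 108 and 117 CPM early and 163, 143, 193 and 143 CPM advanced. All advanced libraries lay above baseline, with a log2 fold change of 0.80 ± 0.14 (edgeR adjusted p = 0.0183). In monocytes the same gene gave 0.26 ± 0.13 and was not called. Uqcrh measured 67.1, 66.8, 64.3 and 76.4 CPM at baseline and 114, 87.01, 134 and 100.4 CPM advanced (0.74 ± 0.15, edgeR adjusted p = 0.0414), and was the 1 member called in both populations at this stage. The median over members was 0.21 and 53 of 75 were positive, against 50.7% of all genes. The count fell to 0 without baseline 1, 2 or 3 or advanced 3 or 4 and to 1 without advanced 1. By limma-voom with quality weights it was 22, with 20 higher and 2 lower. It was 7 without early 1 and 2, which are outside the comparison but inside the fit, and 6 by DESeq2, all higher. The shares of all genes called in these refits are not given here. From early to advanced no member was called (edgeR), while 1.33% of all genes were. At an unadjusted p under 0.05, 14 were lower and 1 higher, where 10.9% of all genes were lower and 8.58% higher. DESeq2 called 3, all lower. Of the 75 log2 fold changes 15 were positive, against 47.6% of all genes, with a median of -0.22. The count was 1 without early 3 and 2 without early 4.

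In aortic macrophages no member was called between any 2 stages by edgeR, where 0.373% of 9920 genes were called early against baseline, 0.585% advanced against baseline and 0.0403% advanced against early. At an unadjusted p under 0.05 there were 6, 2 and 0 members, where 10.2%, 8.83% and 3.57% of all genes were, and DESeq2 called 2 members early against baseline. The members' median log2 fold change was 0.37 early and 0.34 advanced against baseline, beside -0.02 and -0.04 over all genes, and -0.08 from early to advanced. The spread between aortic libraries was wider than in monocytes. The median coefficient of variation of a member was 100.4% at baseline, 62.1% early and 40.7% advanced, against 11.6 to 16.7% in monocytes. Over all genes above a CPM minimum the aortic medians were 81.45%, 55.06% and 32.28%, so the wide spread was not limited to the members. Early against baseline, the lowest p was that of Uqcrb, at 15.8, 52.4, 15.7 and 3.97 CPM at baseline and 69.6, 54.9, 124 and 163 CPM early (2.41 ± 0.77, edgeR adjusted p = 0.177). A change of the size seen in monocytes was not detectable with this spread.

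Many members had no count at all in deep aortic baseline libraries. In baseline 1 to 4, with 9743795, 8335585, 5278901 and 9331198 reads, 1, 3, 14 and 32 of 76 members were at 0. Over all genes, 10163, 10102, 7790 and 7565 were detected in the same libraries, so fewer genes in general were seen in baseline 3 and 4. In baseline 4 the 32 were 19 genes of complex I, 1 of complex II, 5 of complex III, 3 of complex IV and 4 of complex V. A count of 0 there allows up to 0.322 CPM (3 counts of the total), and in baseline 3 up to 0.568 CPM, for counting error only, since reads without molecular identifiers are not independent molecules. Some genes at 0 were abundant in sister libraries. Cox4i1 had 1557, 948, 381 and 0 counts in baseline 1 to 4, Uqcrc1 had 874, 778, 714 and 0, and Uqcrfs1 had 445, 48, 0 and 0. Cox5b went the other way in the same libraries, with 236, 363, 0 and 1667 counts. Of the 14 and 32 genes at 0 in baseline 3 and 4, 7 were the same. These examples were chosen after their values were seen. The monocyte and peritoneal libraries, down to 942899 reads, had at most 1 member at 0 each. Aortic early libraries had 3, 1, 2 and 9 members at 0 and advanced ones 7, 0, 0 and 0. Few cells, low RNA input and less RNA of a gene per cell cannot be told apart in such zeros.

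**Figure D4:**
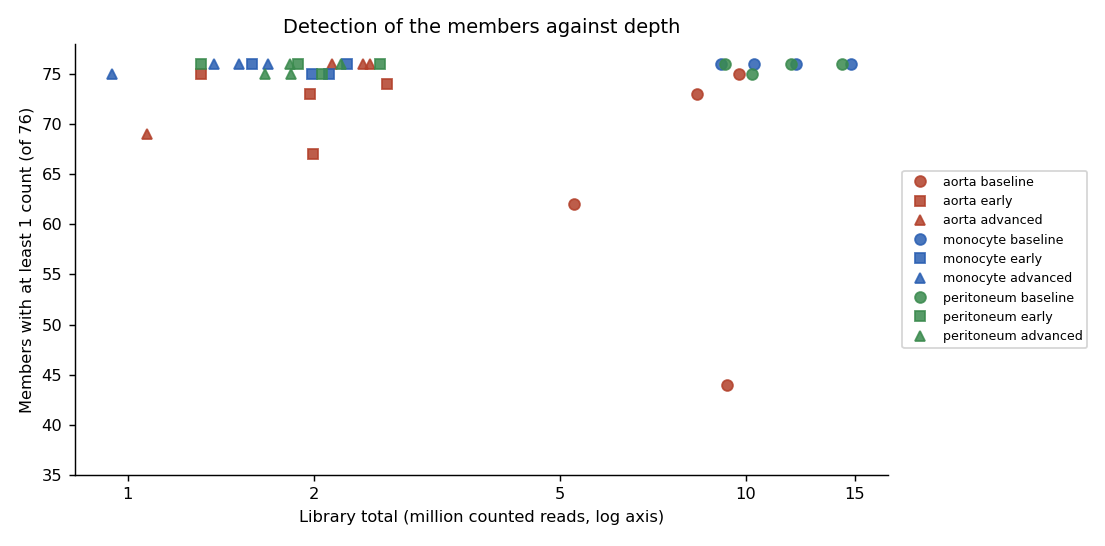
Members with at least 1 count (vertical axis, of 76) against library total in units of 1000000 counted reads (log axis), with colour for the population and shape for the stage. Aortic baseline 4 (44 members at 9.33 units) and aortic baseline 3 (62 at 5.28) lie far below monocyte and peritoneal diet libraries of 0.943 to 2.56 units, which hold 75 or 76.

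Between peritoneal macrophages and monocytes, averaged over stages, 13 members were higher in the peritoneum and 14 lower, 27 of 75, where 67% of all 10343 genes were called, 32.5% higher and 34.6% lower. Subunits of the same complex went both ways, with 6 higher and 5 lower in complex I, 2 and 1 in complex II, 1 and 3 in complex III, 1 and 0 in complex IV and 3 and 5 in complex V. The complex V counts include Atp5s, higher, and Atp5sl, lower, which RefSeq does not name as ATP synthase subunits. Atp5c1 was lower in the peritoneum at every stage without overlap, at 138 ± 5.28 CPM against 218 ± 14.4 at baseline, 172 ± 34.3 against 248 ± 14.4 early and 174 ± 16.2 against 261 ± 26.5 advanced (mean ± SD, n = 4), with -0.39 ± 0.06 on the log2 scale (edgeR adjusted p = 6.57e-06). Atp5h (-0.36 ± 0.07), Ndufs4 (-0.41 ± 0.11), Atp5l (-0.63 ± 0.14) and Atp5sl (-1.05 ± 0.16) were the other members lower without overlap at all 3 stages. The share of all genes that were so at all 3 stages is not given here, and 34.6% of all genes were called lower. Ndufs4 is a complex I subunit next to the electron input and Atp5l is subunit g of the ATP synthase. Uqcrfs1 was lower by -0.49 ± 0.10, at 47.5, 46.5, 51.2 and 40.3 CPM against 85.8, 99.1, 71.1 and 75.9 CPM at baseline, and early 2, at 78.2 CPM, was the 1 peritoneal library within the monocyte range.

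Higher in the peritoneum were Ndufa5 (0.77 ± 0.18), Uqcr11 (0.71 ± 0.14) and Ndufa4 (0.60 ± 0.11, edgeR adjusted p = 6.85e-05), none of them without overlap at all stages. Ndufa4 read 50.01 ± 8.22 CPM against 35.9 ± 3.91 at baseline and 72.3 ± 5.82 against 60.3 ± 9.30 advanced. The largest value, Atp5s (1.57 ± 0.45), had 3.95 ± 0.981 CPM against 0.765 ± 0.517 at baseline, without overlap, 2.77 ± 2.17 against 1.21 ± 1.73 early and 4.36 ± 1.43 against 2.51 ± 2.05 advanced. Atp5a1 was called higher by 0.19 ± 0.05 after TMM normalization, which rescales library totals as CPM does not. Its CPM were 304 ± 20 in the peritoneum against 279 ± 12.2 in monocytes at baseline, 305 ± 21.3 against 314 ± 21.3 early and 306 ± 15.8 against 334 ± 8.0 advanced, where all peritoneal libraries lay below the monocyte ones. Sdhc and Sdha, the complex II members called higher, overlapped monocytes at every stage. Mean CPM at baseline, early and advanced were 42.7 against 32.4, 36.7 against 39.9 and 36.2 against 41.6 for Sdhc. For Sdha they were 137 against 126, 131 against 122 and 121 against 124. The Sdhc call was kept in 9 of 24 fits that each left out 1 library. With RLE size factors 17 were higher and 14 lower, with limma-voom 16 and 21. A fit of all 36 libraries, with the aortic libraries in the estimate of spread, called 1, Atp5c1.

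**Figure D5:**
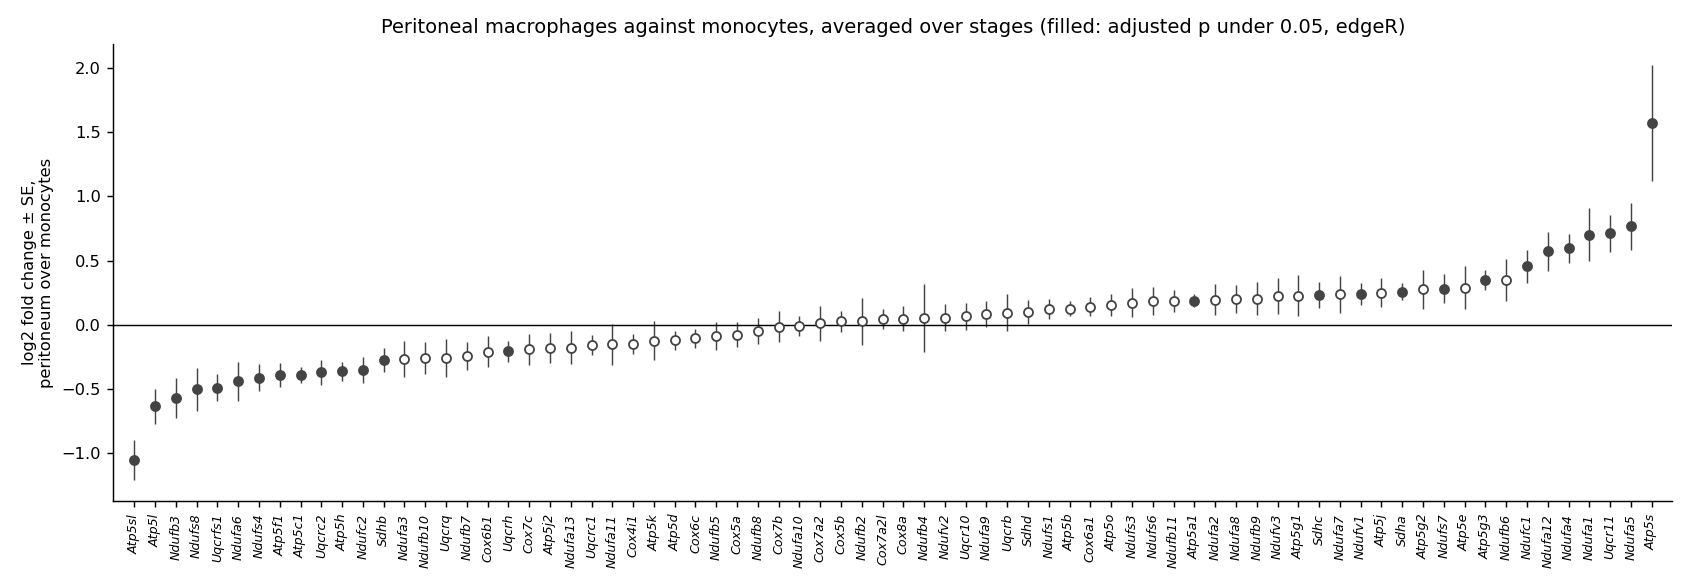
Log2 fold change ± SE of 74 members in peritoneal macrophages over monocytes, averaged over the 3 stages and sorted by size, with filled points for adjusted p under 0.05. Values run from -1.05 (Atp5sl) to 1.57 (Atp5s), with 14 filled points below 0 and 13 above.

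Aortic macrophages had 1 member higher and 7 lower than monocytes, 8 of 75, where 29.7% of all genes were called, 14.1% higher and 15.7% lower, and the median of all genes was -0.12. The 7 were Atp5c1 (-0.74 ± 0.16), Atp5a1 (-0.73 ± 0.23), Atp5g1 (-2.74 ± 0.75), Ndufb3 (-1.92 ± 0.55), Uqcrfs1 (-1.79 ± 0.56), Ndufb5 (-1.29 ± 0.42) and Ndufa11 (-1.51 ± 0.53). Each of the 7 overlapped monocytes at some stage. At the early stage Ndufb5 averaged 51.1 CPM in the aorta against 49.1 in monocytes, and Ndufa11 19.9 against 20.9. The Ndufa11 call was kept in 18 of 24 fits that each left out 1 library and in 5 of 8 other alternatives. The 1 higher, Atp5s (2.91 ± 1.04), read 35.6, 0, 0 and 0 CPM in aortic baseline libraries, 17.3, 1.52, 19.4 and 0 CPM early and 37.3, 7.93, 2.50 and 6.48 CPM advanced. Monocyte libraries held 0 to 4.63 CPM. The call was lost in 12 of 24 fits that each left out 1 library, and without aortic baseline 1 the log2 fold change was 0.25 (edgeR adjusted p = 0.659). Against the peritoneum 2 members were lower, Atp5g1 (-2.85 ± 0.74, edgeR adjusted p = 0.00403) and Atp5a1 (-0.82 ± 0.22, edgeR adjusted p = 0.00558), where 26.8% of all genes were called, 11.9% lower. Without the 6 libraries that stood apart the counts were 19 (1 higher and 18 lower) and 12 (all lower). Without aortic baseline 1, 2, 3 or 4 the second count was 9, 6, 7 and 8, and without aortic early 4 it was 4. The shares of all genes called in these refits are not given here. Fibroblast markers summed to 8.89 to 1027 CPM in aortic libraries and at most 1.42 CPM elsewhere, and their part was not tested.

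Among the 3 genes of ring subunit c, which encode the same mature protein, Atp5g1 was called lower in the aorta against both other populations. It had 0.205, 0, 0.758 and 0 CPM in aortic baseline libraries, 0, 7.62, 1.52 and 0 CPM early and 0, 5.60, 11.7 and 11.3 CPM advanced. Monocytes had 8.89, 10.4, 6.77 and 11.8 CPM at baseline and peritoneal macrophages 12.1, 14.1, 12.5 and 11.1 CPM. In 5 of 12 aortic libraries it was at 0, and in 0 of the other 24. Aortic early 2 and advanced 3 and 4 lay within the monocyte range. Atp5g2 measured 21.6 ± 18.6 CPM and Atp5g3 32.1 ± 16.7 CPM in aortic baseline (mean ± SD, n = 4), against 16.5 ± 2.69 and 36.7 ± 1.93 in monocytes, and neither was called in the aorta. Atp5g3 held the most reads of the 3 in every group. Of the paired isoforms of complex IV, the ubiquitous Cox6a1 measured 50.1 ± 6.79 CPM in monocytes, 56.7 ± 5.68 in the peritoneum and 70.5 ± 50.6 in the aorta at baseline, against 17 counts of Cox6a2 in all libraries together. Cox6b1 measured 32.1 ± 2.85, 31.2 ± 2.66 and 8.60 ± 10.2 CPM in the same groups, and was called higher in monocytes at both diet stages. Its isoform Cox6b2 had more counts in aortic baseline 1 and 2, 50 and 212 against 21 and 81 of Cox6b1, and fewer in the other libraries except aortic baseline 4, where both were at 0.

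The stage responses of monocytes and peritoneal macrophages were compared by an interaction term over their 24 libraries. For early against baseline 0 of 75 members differed by edgeR, also at an unadjusted p under 0.05, where 2.78% of 10343 genes differed at the adjusted and 15.9% at the unadjusted threshold. For advanced against baseline 0 differed (2.3% of all genes), with 13 lower and 2 higher in the peritoneum at an unadjusted p under 0.05, against 6.79% and 7.1% of all genes, and DESeq2 called 3. Without peritoneal advanced 4 the count was 1. For advanced against early, Cox5a alone differed (1.25% of all genes, 0.967% lower), by -1.16 ± 0.25 (edgeR adjusted p = 0.0241). It went from 85.5, 65.3, 41.1 and 42.9 CPM early to 35.5, 36.01, 28.9 and 37.5 CPM advanced in the peritoneum, and from 58.9, 41.1, 59.8 and 43.8 CPM to 72.1, 65.8, 70.6 and 61.01 CPM in monocytes. Peritoneal early 1 and 2 were the high values, and without the libraries that stood apart the difference was -0.72 with an adjusted p of 0.23. The adjusted p was 0.0597, 0.0506, 0.0568, 0.0517 and 0.0601 without monocyte early 2, monocyte early 4, peritoneal early 2, peritoneal advanced 2 or peritoneal advanced 3, and 3 members were called without peritoneal early 3 or 4. A p above the threshold does not show that the populations responded alike.

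Over the 12 monocyte libraries, the non-member genes whose log2 CPM followed the members' summed level most closely, of 6103 genes, were Cetn3 (Pearson's r = 0.958), Srp9 (0.954) and Btf3 (0.942). In the 12 peritoneal libraries, of 5809 genes, they were Nedd8 (0.975), Psma7 (0.972) and Tmsb4x (0.969). The libraries of a population share stage and depth differences, and their part in these values was not tested. No gene was on both lists of 5.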

How the data were processed

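Sorted cells went into small-input RNA extraction and low-input paired-end libraries, per the labels' protocols. The authors deposited raw counts per gene for each library. The submitters' processing notes name STAR, featureCounts and mm10. Versions, annotation and strand use are not given in the sources used here, so members with near-identical copies or overlapping genes are uncertain.

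Groups came from the sample titles. Stages were fitted per population (12 libraries) and populations in pairs (24 libraries, 6 groups) with edgeR 4.0.16 in R 4.3.3: quasi-likelihood test, TMM, filterByExpr, 2-sided, Benjamini-Hochberg adjusted p under 0.05 over all genes tested. The SE was taken as the size of the log2 fold change divided by the root of its F statistic. CPM are counts per 1000000 counted reads. Scripts were tested on simulated data. Alternatives were RLE factors, no filter, DESeq2 1.42.0, limma-voom 3.58.1 with quality weights, a replicate block, thinning to 942899 reads, a fit of all 36 libraries and leaving out each library. Leaving out the 6 libraries that stood apart was added after seeing the data.

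Members and lists were chosen with earlier results of these data known. Named members are 11 core subunits (1 of them is not reported here), isoform sets, up to 3 called members per complex, direction and comparison with the smallest p, and the 2 highest and 2 lowest log2 fold changes. Named related genes are up to 3 called per list and comparison. Other named members were chosen after their values were seen. Kinase and binding-protein genes that share the name stem of ribosomal proteins were left out of that list after the values were seen.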

Additional observations from a re-analysis of the deposited data

Results flagged for a closer look

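For 35 measures in 9 groups of 4 libraries, 315 checks were made. In 16, the gap of 1 library to the nearest other exceeded the 95% critical share of the group's range (Dixon). Chance marks about 1 in 20 groups, near the share marked here. Sums and their member genes come from the same libraries, so the checks are not independent. Aortic libraries gave 10 of the 16, with the other 3 libraries of the group in brackets. The complex I sum was 243.7 CPM in aortic baseline 4 (752.9 to 830.5). Uqcrfs1 was 45.67 CPM and Atp5s 35.61 CPM in aortic baseline 1 (0 to 5.758, and 0), and Ndufa4 was 58.06 CPM in aortic baseline 2 (0 to 2.874). Atp5a1 was 119.9 CPM in aortic early 1 (199.7 to 210.9). In aortic advanced 1, Cox5a was 72.68 CPM (45.38 to 47.44), Cox7a2 120.2 CPM (30.38 to 41.07), Atp5s 37.27 CPM (2.497 to 7.933) and Ndufa11 0.9317 CPM (9.571 to 9.8). Cox4i1 was 80.27 CPM in aortic advanced 2 (120.3 to 128.6).

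Monocytes gave the other 6. The complex II sum was 332.0 CPM (259.9 to 268.9) and Cox8a 30.23 CPM (38.07 to 39.68) in early 1, and Atp5s was 3.779 CPM in early 2 (0 to 0.6297). At the advanced stage, Ndufs1 was 42.85 CPM in library 4 (61.7 to 62.87), Cox7a2 60.45 CPM in library 2 (43.9 to 45.03) and Atp5c1 221.9 CPM in library 3 (270.4 to 278.2). Cox5a also differed between peritoneal macrophages and monocytes in its change from early to advanced, by -1.16 on the log2 scale.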

How the results depend on the processing

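Of 63 calls on single named members, refitted 1463 times in all, 1296 refits kept direction and threshold, 167 kept the direction and missed the threshold, and 0 reversed. Counts of members called moved by over 1.5 times as follows, and the cause was not tested. They are given without the shares of all genes called in the same refits. DESeq2 gave 2 in the aorta early against baseline, 22, 3 and 6 in the peritoneum (early against baseline, advanced against early, advanced against baseline), 11 for aorta against peritoneum, and 2 and 3 for the response differences advanced against early and against baseline. Limma-voom with quality weights gave 13 in the peritoneum early against baseline and 22 advanced against baseline, the 22 being 20 higher and 2 lower. It gave 13 and 9 for aorta against monocytes and peritoneum, and 0 and 5 for those response differences. RLE factors gave 4 for aorta against peritoneum. Thinning gave 13, 0 and 18 in monocytes (early against baseline, advanced against early, advanced against baseline), 0 and 1 in the peritoneum (early and advanced against baseline), 9 for aorta against peritoneum and 0 for the response difference advanced against early. The fit of all 36 libraries gave 1 for peritoneum against monocytes, 12 for aorta against peritoneum and 0 for that response difference. Without the libraries that stood apart the counts were 0 in monocytes advanced against early, 0 and 7 in the peritoneum (early and advanced against baseline), 19 and 12 for the aorta against monocytes and peritoneum, and 0 and 2 for the response differences advanced against early and against baseline.

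The replicate block gave 0 in monocytes advanced against early, 0 and 0 in the peritoneum (early and advanced against baseline) and 4 for aorta against peritoneum. Block and voom moved the median of all genes in the aortic comparisons, from -0.02 to 0.229 and 0.206 early against baseline and from -0.121 to -0.616 and -0.449 against monocytes. Same-numbered libraries correlated with a median of 0.016 across populations (4 of 36 pairs over 0.1) and -0.002 across stages (2 of 36). The 4 pairs were all of baseline monocytes with baseline peritoneal macrophages, at 0.134, 0.213, 0.182 and 0.227. Differently numbered libraries were not compared, and whether the numbers pair the libraries was not tested.

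Leaving out each library in turn gave 10 to 22, 20 to 31 and 0 to 1 members in monocytes (early and advanced against baseline, advanced against early), 0 to 17, 0 to 2 and 0 to 2 in the peritoneum, 0 to 0 in each aortic comparison, 26 to 33 for peritoneum against monocytes, 6 to 12 and 2 to 9 for the aorta against monocytes and peritoneum, and 0 to 0, 0 to 1 and 0 to 3 for the response differences. Depth limits the diet stages, at 942899 to 2628766 reads, and the spread between libraries limits the aorta.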

Other observations

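Genes that feed or flank the complexes were compared between peritoneal macrophages and monocytes, averaged over stages (edgeR, adjusted p under 0.05), where 67% of all genes were called, 32.5% higher and 34.6% lower. Pfkl, a phosphofructokinase of glycolysis, was higher in the peritoneum by 2.41 ± 0.15 on the log2 scale, and Gapdh by 1.14 ± 0.08, with 6 higher and 6 lower of 16 glycolysis genes. In the TCA cycle 4 of 14 were higher and 4 lower, with Idh2 at 1.53 ± 0.11 and Suclg2 at 1.45 ± 0.11. Slc25a5, which exchanges ADP and ATP across the inner membrane, was lower (-1.04 ± 0.09) and Atpif1 higher (0.95 ± 0.11). Among regulators Tfam, which maintains mitochondrial DNA, was lower (-0.71 ± 0.12). Of 17 proteasome core genes 11 were lower and 1 higher. With calls in both directions counted, the shares called in the glycolysis and proteasome lists were near that of all genes. By direction the proteasome calls were mostly lower, while 34.6% of all genes were called lower and 32.5% higher. Early libraries 1 and 2 of the peritoneum, with the classical monocyte markers described above, are among those averaged here.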
